A study of Mus musculus with 4 samples.

Results

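Elovl6, Elovl1, Scd1 and Scd2, which encode fatty acid elongases (Elovl) and stearoyl-CoA desaturases (Scd) of the mouse, were followed on 4 liver arrays. The members were all probe sets that the platform annotation assigns to these genes. They came to 8 probe sets, 3 for Scd1, 2 for Scd2, 2 for Elovl6 and 1 for Elovl1, and stood for 4 of the 8251 genes named on the array.

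Each array of the type Affymetrix MG_U74Av2 carried liver RNA pooled from female mice, which were fed at killing and 8 months old. The 4 groups were HSL-null mice on a high-fat diet (FD) with 4 livers in the pool, HSL-null mice on a normal diet (ND), wild-type mice on FD and wild-type mice on ND, with 6 livers in each of these pools. FD supplied 58% and ND 11% of energy from fat, and each was given for 6 months. HSL-null mice lack hormone-sensitive lipase, encoded by Lipe, in the whole body, so a difference in liver cannot be assigned to the loss of the enzyme in hepatocytes. The strain was not given in the sources used here. With 1 pool and 1 array in each group there were no replicates, so no difference has a test behind it, and "higher" and "lower" refer to the pools as measured.

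Elongases and desaturases act in the endoplasmic reticulum on fatty acids that come from synthesis or from the diet. Elovl6 elongates palmitate to stearate, and Elovl1 makes saturated and monounsaturated fatty acids of very long chains, which are used in sphingolipids. Scd1 and Scd2 insert the first double bond into palmitate and stearate, Scd1 being the main form of adult liver and Scd2 the form prominent in brain. In liver, Elovl6 and Scd1 are known as lipogenic genes under the control of SREBP-1c, LXR and insulin, and polyunsaturated fat lowers Scd1.

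Signals are MAS5 values on a linear scale, which the authors had scaled to a 2% trimmed mean of 100.085 to 100.094 on each array. Values under a floor of 6.1 were raised to it before log2. A probe set was kept where its mean over the arrays reached 26.9, which left 6211 of 12422. A ratio of 2-fold, a log2 ratio of 1 in size, counted as different. The measure of error was the disagreement between the 2 brightest kept probe sets of 687 genes, which gave a log2 ratio an SD of 0.298. That SD leaves out error that probe sets share on an array, and variation between animals was not measured. The single probe set of Lipe had signals of 15.9 in HSL-null FD and 11.9 in HSL-null ND, against 34.0 in wild-type FD and 28.0 in wild-type ND, and whether its probes lie in the deleted part is not given. The hepatocyte markers were bright, with Alb between 4679.9 and 6913.0. The 4 arrays shared 1 chip lot and 1 scan day. The run settings named a different solution lot for each of the 2 genotypes, which cannot be told apart from genotype.

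Elovl6 had the largest diet ratios of the 4 genes, and it was lower on FD in both genotypes at both of its probe sets. The probe set 103665_at had signals of 103.0 on FD and 327.4 on ND in HSL-null liver, and of 67.2 on FD and 377.5 on ND in wild-type liver. The probe set 94418_at had 66.6 on FD and 243.4 on ND in HSL-null liver, and 80.9 on FD and 221.4 on ND in wild-type liver. Both FD arrays lay under both ND arrays at each probe set. The share of all kept probe sets with this order was not counted, so the order alone does not set a member apart. FD over ND came to a log2 ratio of -1.67 at 103665_at and -1.87 at 94418_at in HSL-null liver, and to -2.49 and -1.45 in wild-type liver. As means over the 2 probe sets of Elovl6, which are not replicates of a condition, these were -1.77 ± 0.14 in HSL-null and -1.97 ± 0.73 in wild-type liver (SD, n = 2 probe sets).

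The diet ratios of Elovl6 were among the lowest of the kept probe sets. Probe sets 2-fold or more lower on FD made up 0.725% of those kept in HSL-null and 2.51% in wild-type liver, out of 1.58% and 3.33% that were 2-fold different in either direction. In HSL-null liver 16 of the 6211 had a lower ratio than 103665_at and 9 a lower ratio than 94418_at, and in wild-type liver 10 and 51 did. Probe sets 2-fold or more lower on FD in both genotypes numbered 8, or 0.129%, and these 2 diet ratios share no array. Those with 1 named gene belonged to Elovl6, Fabp5, Lepr and Prss2, and Elovl6 was the gene among them with 2 such probe sets. The other 3 of the 8 had no single gene. Prss2 had 1.9 on FD and 15.2 on ND in HSL-null liver, and 4.6 and 135.9 in wild-type liver. Both of its FD signals were under the floor, and wild-type ND alone was above the filter value of 26.9. Fabp5 encodes a fatty acid binding protein, Lepr the leptin receptor and Prss2 a trypsinogen of the exocrine pancreas, and none of the 3 is a member.

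**Figure D1:**
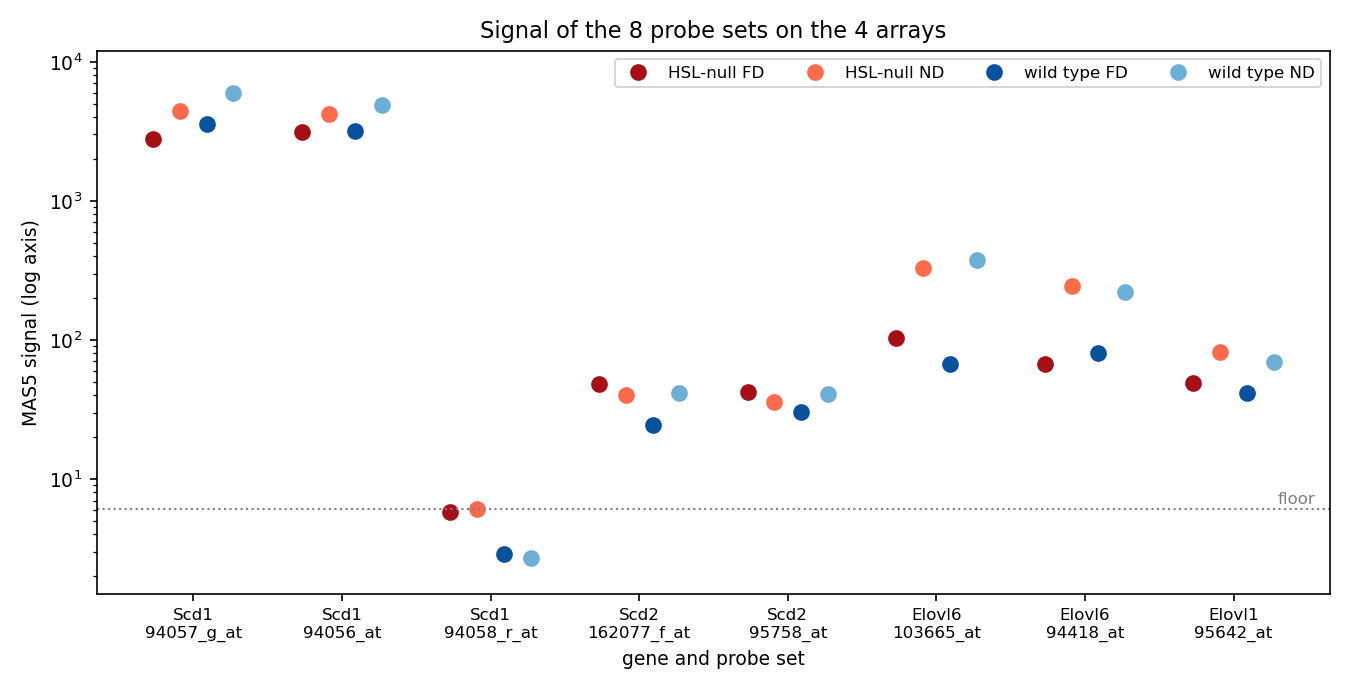
MAS5 signal (log axis) of the 8 probe sets on the 4 arrays, 1 point per array, with the floor of 6.1 as a dotted line. Both FD arrays lie under both ND arrays at the Elovl6, Elovl1 and 2 brighter Scd1 probe sets, while the Scd2 probe sets are lowest in wild-type FD.

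Elovl1 was lower on FD in both genotypes too, by less than 2-fold. Its only probe set, 95642_at, had signals of 49.4 on FD and 81.3 on ND in HSL-null liver, and of 41.3 on FD and 69.9 on ND in wild-type liver. Both FD arrays lay under both ND arrays. The log2 ratios were -0.72 in HSL-null and -0.76 in wild-type liver, more than 2 SDs between probe sets below 0. Of the kept probe sets, 1.35% had a lower ratio in HSL-null and 5.22% in wild-type liver. With 1 probe set, nothing in the table checks this reading of Elovl1.

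The sequences before the gene starts are shown for Elovl6 and Elovl1, the members for which they were available. None was available for Scd1, which was also lower on FD in both genotypes, or for Scd2. RefSeq sequences of the build GRCm38.p6 were matched for these 2 of the 4 genes, with 1 start for Elovl6 and 2 for Elovl1. Each line gives the 250 bases before the start on the plus strand, and capitals mark matches on either strand to 4 motifs. The sterol regulatory element was searched as TCACNCCAC. The E box was searched as CACGTG. For the CCAAT box its 5 letters were used. The GC box was searched as GGGCGG. At the upstream start of Elovl1, a match to the CCAAT box overlaps one to the GC box.
Elovl6, chr3:129532136-129532385: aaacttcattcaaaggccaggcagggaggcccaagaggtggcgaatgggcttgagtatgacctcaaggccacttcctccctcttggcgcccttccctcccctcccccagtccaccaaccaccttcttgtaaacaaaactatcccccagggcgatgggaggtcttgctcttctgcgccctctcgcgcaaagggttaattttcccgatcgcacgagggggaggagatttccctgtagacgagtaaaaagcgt
Elovl1, upstream start, chr4:118427843-118428092: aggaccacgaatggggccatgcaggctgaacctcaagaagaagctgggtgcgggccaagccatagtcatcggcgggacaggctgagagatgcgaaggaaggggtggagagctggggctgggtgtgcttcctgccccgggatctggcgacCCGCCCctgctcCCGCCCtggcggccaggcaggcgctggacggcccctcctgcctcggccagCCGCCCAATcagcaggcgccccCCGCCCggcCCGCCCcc
Elovl1, downstream start, chr4:118429451-118429700: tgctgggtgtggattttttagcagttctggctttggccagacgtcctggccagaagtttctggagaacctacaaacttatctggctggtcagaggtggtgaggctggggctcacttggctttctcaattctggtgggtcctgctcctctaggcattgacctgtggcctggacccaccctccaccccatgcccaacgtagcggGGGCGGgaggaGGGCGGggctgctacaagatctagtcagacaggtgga

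The Elovl6 window held 0 matches to the 4 motifs. The upstream window of Elovl1 held 5 GC boxes and 1 CCAAT box, and its downstream window 2 GC boxes. Over all 32851 windows of this length, 1.05% held the sterol regulatory element, 6.02% the E box, 33.9% the CCAAT box and 32.7% the GC box. The GC content was 56.4% in the Elovl6 window, 72% in the upstream and 58.0% in the downstream window of Elovl1. A match is a run of letters and not a bound site, and no match says only that these letters are not in the window.

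Scd1 was among the brightest genes on every array and was lower on FD in both genotypes, by less than 2-fold. The probe set 94057_g_at had signals of 2775.0 on FD and 4425.9 on ND in HSL-null liver, and of 3591.7 on FD and 5918.0 on ND in wild-type liver. The probe set 94056_at had 3112.4 on FD and 4180.9 on ND in HSL-null liver, and 3194.8 on FD and 4885.9 on ND in wild-type liver. Both FD arrays lay under both ND arrays at each. The means over the 2 probe sets of Scd1 were -0.55 ± 0.18 in HSL-null and -0.67 ± 0.08 in wild-type liver (SD, n = 2 probe sets). Both are annotated to the same sequence record, unlike the pair of Elovl6, so they are not independent readings. The third Scd1 probe set, 94058_r_at, had signals of 5.8 in HSL-null FD and 6.1 in HSL-null ND, against 2.9 in wild-type FD and 2.7 in wild-type ND, at or under the floor on every array, and gives no ratio.

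Most bright probe sets read lower on FD, as Scd1 did, and their part in the Scd1 ratio was not tested. The 100 brightest probe sets, both of Scd1 included, had a median log2 ratio of FD over ND of -0.16 in HSL-null liver. It was -0.31 in wild-type liver, and 90 and 91 of the 100 were below 0. Over all kept probe sets the medians were 0.04 and -0.05, with 43.1% and 55.9% below 0. The highest signal on an array was 4830.5 in HSL-null FD and 5422.1 in HSL-null ND, against 4976.4 in wild-type FD and 6913.0 in wild-type ND. Hybridisation spikes, added to the labelled RNA in fixed amounts, had geometric means of 328.1 on FD and 409.5 on ND in HSL-null, and of 308.4 and 482.0 in wild-type liver. The 3 probe sets of 18S ribosomal RNA averaged 99.1 on FD and 307.1 on ND in HSL-null, and 84.2 and 192.2 in wild-type liver, lower on FD in both as Elovl6, Elovl1 and Scd1 were. Poly-A spikes had geometric means of 1510.3 on FD and 1780.8 on ND in HSL-null, and of 2178.7 and 1412.5 in wild-type liver, higher on FD there. The part of these controls in the diet ratios of the 3 genes was not tested. Relative to the median of the 100, 94057_g_at was at -0.51 in HSL-null and -0.41 in wild-type liver, and 94056_at at -0.26 and -0.31. In HSL-null liver 0 of the 100 had a lower ratio than 94057_g_at and 1 had a lower ratio than 94056_at, and in wild-type liver 2 and 4 did. The probe sets under 94056_at include 94057_g_at in both genotypes. Under quantile normalization the ratio in wild-type liver shrank to -0.30 at 94057_g_at and -0.25 at 94056_at. The size of 100 was chosen after the values were seen.

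**Figure D2:**
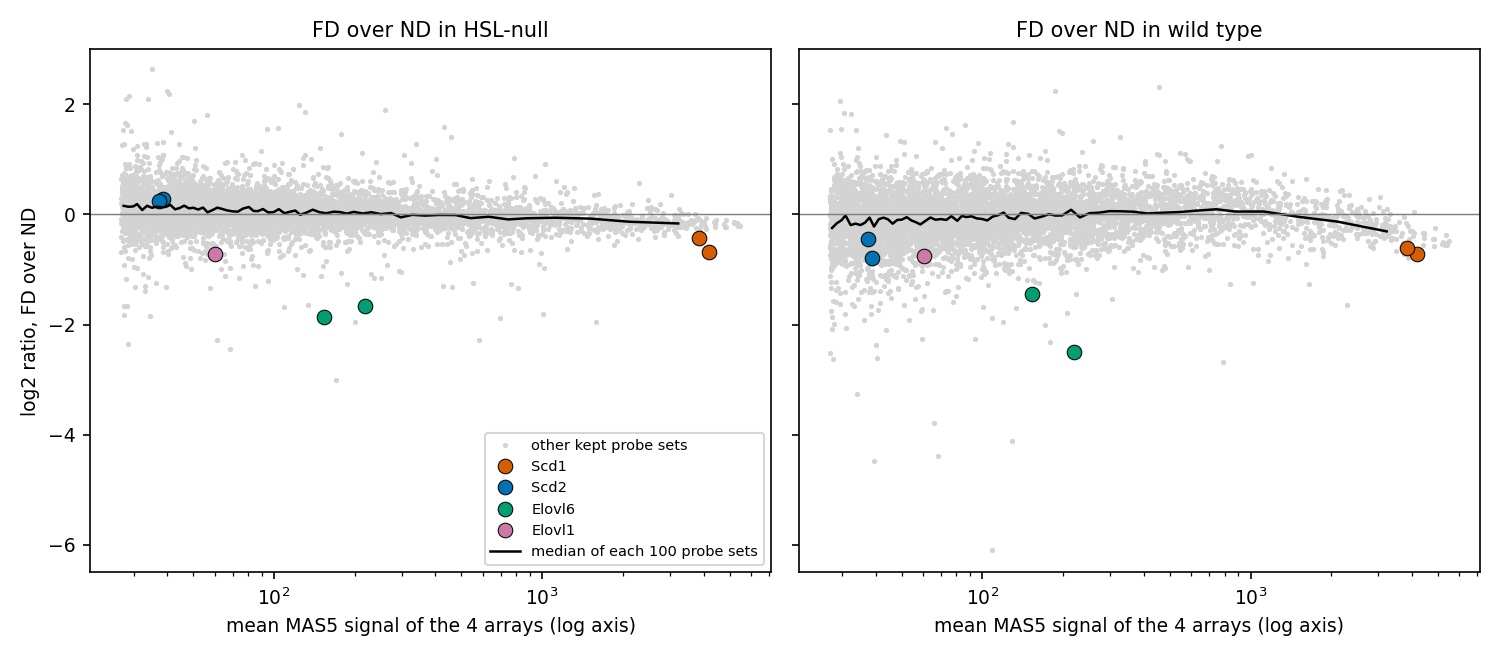
Log2 ratio of FD over ND (vertical) against the mean MAS5 signal of the 4 arrays (log axis) for kept probe sets, in HSL-null (left) and wild-type liver (right), with the median of each 100 probe sets in order of signal as a line. The line falls at the bright end, where Scd1 lies below it, and Elovl6 lies far below it in both panels.

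Scd2 differed from the other members in its diet ratios, which had opposite signs in the 2 genotypes, though those in HSL-null liver were within the SD. The probe set 162077_f_at had signals of 48.4 on FD and 39.9 on ND in HSL-null liver, and of 24.3 on FD and 41.8 on ND in wild-type liver. The probe set 95758_at had 42.4 on FD and 35.7 on ND in HSL-null liver, and 30.2 on FD and 40.9 on ND in wild-type liver. At both, HSL-null FD was the highest and wild-type FD the lowest array. The means over the 2 probe sets of Scd2 were 0.26 ± 0.02 in HSL-null and -0.61 ± 0.24 in wild-type liver (SD, n = 2 probe sets). The HSL-null ratios, 0.28 at 162077_f_at and 0.25 at 95758_at, were within the SD of 0.298. Median scaling lowered them to 0.12 and 0.09. The ± 0.02 is the spread of 2 probe sets on the same arrays and not the error of the ratio. Ratios as far above 0 were common in HSL-null liver, where 18.5% of kept probe sets had a higher ratio than 162077_f_at and 21.5% a higher ratio than 95758_at.

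Scd2 signals were dim, and the error is larger there. Among the 229 genes whose dimmer probe set had a mean of 27.0 to 45.1, the SD between probe sets was 0.386, against 0.212 for the 229 genes at 100.1 or more. The suffix of 162077_f_at marks probes shared within a gene family and that of 94057_g_at probes shared within a group of genes, and transcripts that share those probes were not separated here. The other probe sets of the same genes, 95758_at and 94056_at, carry no suffix.

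**Figure D3:**
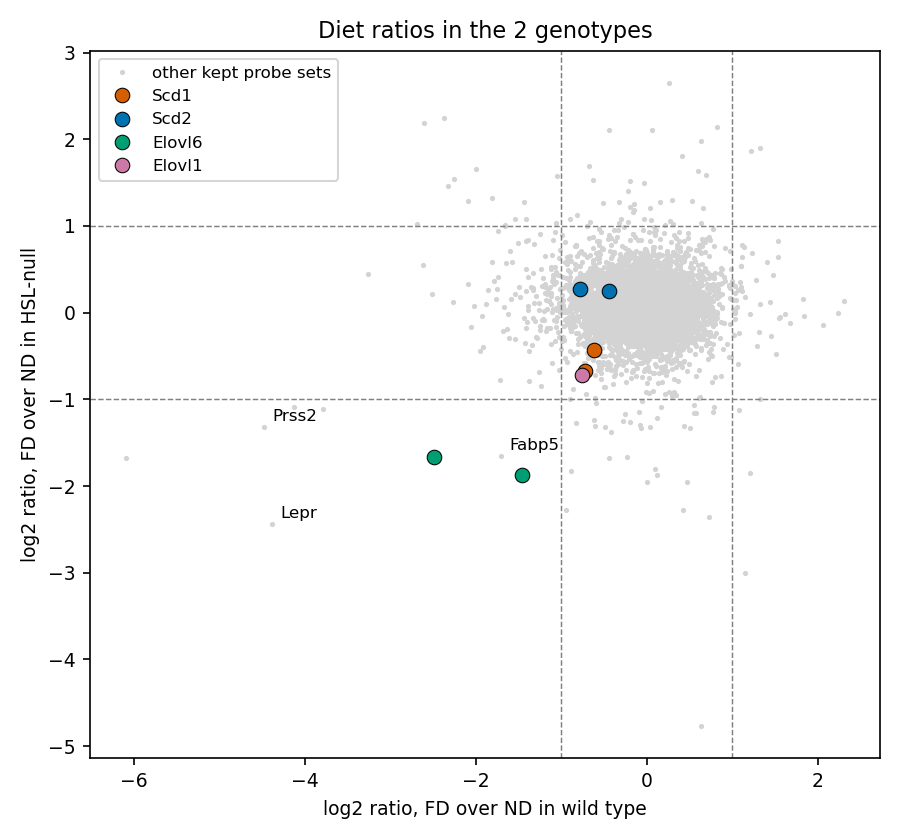
Log2 ratio of FD over ND in HSL-null (vertical) against the same ratio in wild-type liver (horizontal) for the kept probe sets, with members coloured and dashed lines at 2-fold. Both Elovl6 probe sets lie in the corner 2-fold lower in both, with Fabp5, Lepr and Prss2. Scd1 and Elovl1 are under 2-fold, and Scd2 is lower in wild type and higher, within the SD between probe sets, in HSL-null.

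Between genotypes, no member probe set was 2-fold different between HSL-null and wild-type liver on either diet, against 2.91% of kept probe sets on FD and 1.69% on ND. On FD, Scd2 came nearest, with log2 ratios of 0.99 at 162077_f_at, which is 1.99-fold, and 0.49 at 95758_at. On ND the same probe sets were at -0.07 and -0.20, and the first turned positive under all 3 other normalizations, from 0.032 under cyclic loess to 0.063 under median scaling. Of the kept probe sets, 2.01% had a higher ratio on FD than 162077_f_at and 13.6% a higher ratio than 95758_at.

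Marker sums of other cell types differed between the FD pools as well. The 4 stellate cell markers measured of 5 summed to 183.1 in HSL-null FD and 124.5 in wild-type FD, against 120.4 in HSL-null ND and 146.6 in wild-type ND. The 6 Kupffer cell and macrophage markers measured of 7 summed to 1316.9 in HSL-null FD and 1044.6 in wild-type FD, against 1441.6 in HSL-null ND and 1465.4 in wild-type ND. Clec4f, the brightest macrophage marker, had 574.7 in HSL-null FD and 386.7 in wild-type FD, and the other markers of that list were also higher in HSL-null FD. The 4 lymphocyte markers measured of 5 summed to 125.3 in HSL-null FD and 107.4 in wild-type FD. On ND they summed to 114.8 in HSL-null and 147.0 in wild-type liver. Ptprc, Cd79b and Cd3e were higher in HSL-null FD than in wild-type FD, where Cd3e was at the floor. Ms4a1, the brightest of the 4, went the other way, at 47.5 against 67.0. The 5 adipocyte markers measured of 7 summed to 2990.9 in HSL-null FD and 2592.3 in wild-type FD, against 2492.8 in HSL-null ND and 2437.7 in wild-type ND, highest in HSL-null FD as Scd2 was. Most of that sum was Car3, with 2834.3 in HSL-null FD and 2451.2 in wild-type FD, so the sum reads Car3 more than the list. Fabp4 had 25.2 and Lep 124.7 in HSL-null FD, against 18.6 and 109.1 in wild-type FD. Adipoq, which defines adipocytes, went the other way from the sum. It had 4.9 in HSL-null FD and 4.8 in HSL-null ND, both under the floor, against 9.2 in wild-type FD and 18.1 in wild-type ND. Retn was at or under the floor on 4 of 4 arrays. The 4 pancreas markers measured of 6 summed to 699.5 in wild-type ND, against 221.2 to 279.0 on the other arrays. Of these, Prss2, Ctrb1 and Clps were highest in wild-type ND, and Cela1 was highest in HSL-null FD, at 184.1, with 158.5 in wild-type ND. The part of these markers in the Scd2 and other ratios was not tested, and in pooled tissue fewer cells of a type and less RNA per cell cannot be told apart.

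The probe sets of Elovl6 did not give 1 direction for genotype. On FD the log2 ratio of HSL-null over wild type was 0.62 at 103665_at and -0.28 at 94418_at, a mean of 0.17 ± 0.63 (SD, n = 2 probe sets). On ND it was -0.21 and 0.14. Of the 687 genes with 2 probe sets, 29 were further apart than Elovl6 on FD. In the wild-type diet ratio 23 of the 687 were further apart.

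Scd1 had genotype ratios below 0, at -0.37 on FD and -0.42 on ND (log2) at 94057_g_at, and at -0.04 and -0.22 at 94056_at, where cyclic loess gave 0.08 on FD and quantile normalization 0 on ND. The 100 brightest probe sets had medians of -0.01 on FD and -0.14 on ND for the same comparison. Elovl1 had 0.26 on FD and 0.22 on ND, within 1 SD of 0.

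**Figure D4:**
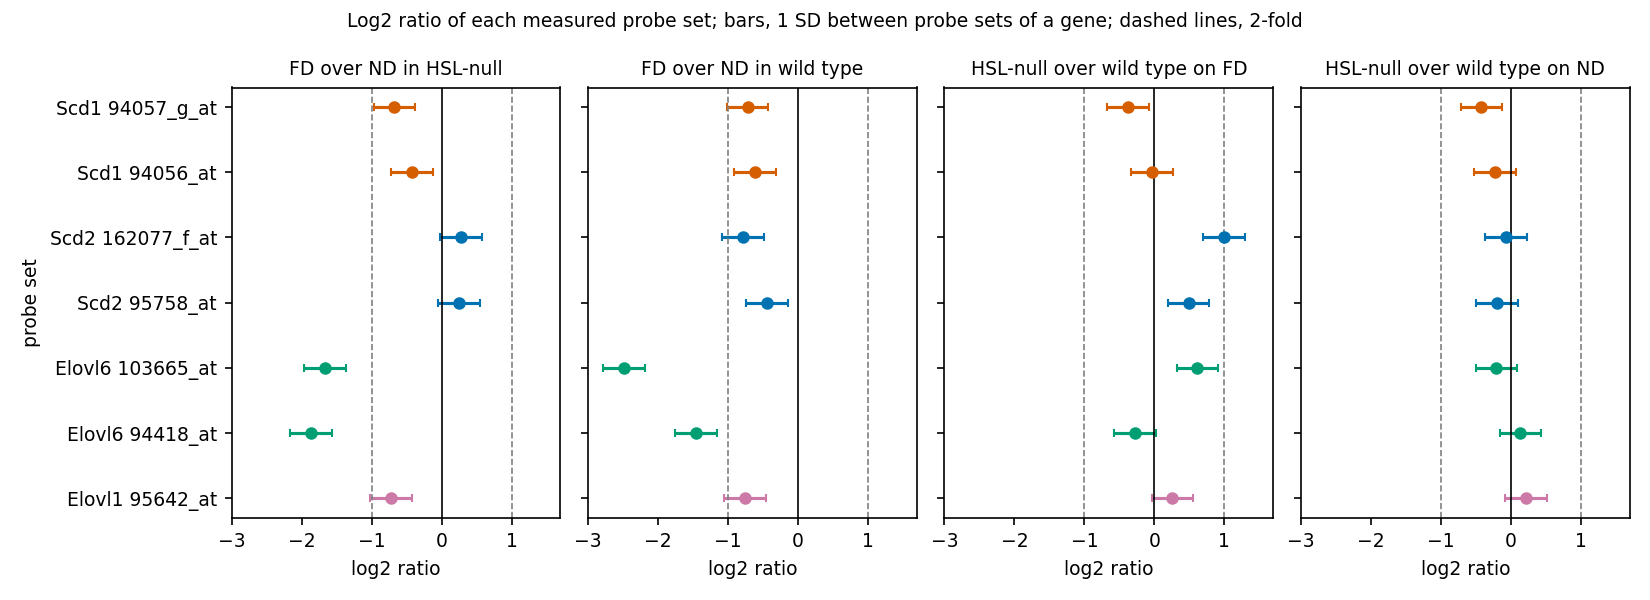
Log2 ratio of each of the 7 kept probe sets in the 4 comparisons, with bars of 1 SD (0.298) between probe sets of a gene and dashed lines at 2-fold. Both Elovl6 probe sets pass 2-fold in both diet panels, and no member passes it in the genotype panels.

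The difference of the genotype ratios, FD minus ND, was past 2-fold for 1 of the 7 kept probe sets, 162077_f_at of Scd2, at 1.06, with 0.69 at 95758_at. This passed 2-fold for 6.65% of all kept probe sets, 5.17% higher and 1.48% lower. The SD between probe sets was 0.426 for this quantity and 0.562 for genes with a probe set as dim as those of Scd2. The median of all kept probe sets was 0.10, and median scaling moved it by -0.30, to -0.20, with 0.76 at 162077_f_at. The value at 162077_f_at dropped under 2-fold with each of the 5 other normalizations and treatments of low signals, to between 0.72 and 0.93. At 95758_at it lay between 0.39 and 0.69 over the same settings. Elovl6 had 0.82 at 103665_at and -0.42 at 94418_at, Scd1 0.05 and 0.19, and Elovl1 0.04. The signs for Scd1 and Elovl1 turned under quantile normalization and median scaling, and that for Elovl1 under cyclic loess too.

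In the order of levels, both ND arrays stood above both FD arrays at the probe sets of Elovl6 and Elovl1 and at the 2 brighter ones of Scd1, but not at those of Scd2. How many of all kept probe sets had this order was not counted. Steps are set against the SD of 0.298 over all pairs. By the 0.212 of genes at 100.1 or more, the steps of 0.28 at 94418_at and 0.22 at 94056_at would be past the SD. At 94418_at of Elovl6 the arrays ran HSL-null ND, wild-type ND, wild-type FD and HSL-null FD, with a step of 1.45 between the ND and FD arrays and steps of 0.14 and 0.28, within the SD, inside each diet. At 103665_at the step between diets was 1.67 and that between wild-type ND and HSL-null ND 0.21, but HSL-null FD stood 0.62 above wild-type FD. For Elovl1 the step between diets was 0.50 and the others, 0.22 and 0.26, were within the SD. For Scd1 the arrays ran wild-type ND, HSL-null ND, wild-type FD and HSL-null FD, with a step between diets of 0.39 at 94056_at and steps of 0.22 and 0.04, within the SD, inside each diet. At 94057_g_at the step between diets was 0.30, and those inside each diet, 0.42 and 0.37, were past the SD too. For Scd2 at 95758_at no neighbouring arrays differed by more than the SD, and at 162077_f_at only wild-type FD stood apart, 0.72 below the next array.

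Genes of fatty acid synthesis, the pathway that supplies palmitate to Elovl6, were lower on FD in HSL-null liver. Of the list of 10, 6 were measured, and 4 were 2-fold or more lower on FD in HSL-null liver, against 0 in wild-type liver, beside 0.621% of all 4829 genes in HSL-null and 2.36% in wild-type liver. The median log2 ratio was -1.13 in HSL-null and -0.06 in wild-type liver, beside 0.04 and -0.05 over all genes. Me1, which encodes the NADPH-producing malic enzyme, had signals of 236.4 on FD and 580.0 on ND in HSL-null liver and of 430.9 and 454.1 in wild-type liver. Acly, which encodes ATP citrate lyase, had 459.4 and 1104.8 in HSL-null and 699.9 and 798.6 in wild-type liver.

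Fasn, fatty acid synthase, had log2 ratios of -1.24 in HSL-null and -0.62 in wild-type liver, and Pklr, liver pyruvate kinase, -1.02 and -0.05. Thrsp, a regulator of lipogenesis, had -0.70 and 0.08, and it was the gene of the list 2-fold lower in HSL-null than in wild-type liver on FD, at -1.26, beside 0.953% of all genes. All 6 had a negative difference of genotype ratios, from -1.22 for Me1 to -0.62 for Fasn, where 41.3% of all kept probe sets were below 0. Of the 6, 2 were 2-fold or more lower in this quantity, beside 1.39% of all genes. Elovl6 had diet ratios past 2-fold in both genotypes at both probe sets, and whether it departs from these enzymes was not tested.

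**Figure D5:**
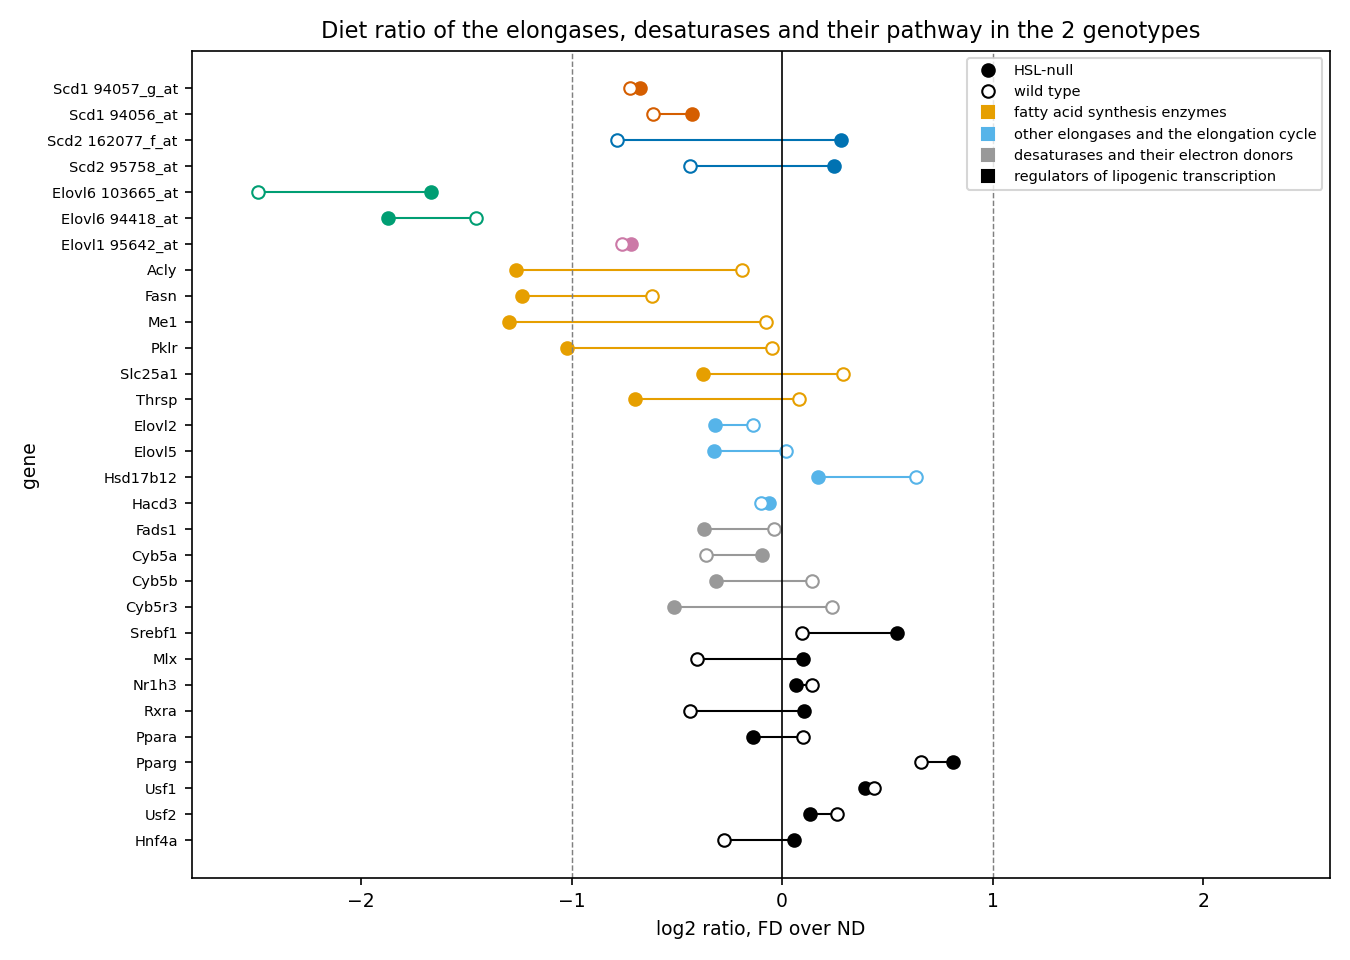
Log2 ratio of FD over ND in HSL-null (filled) and wild-type liver (open) for the 7 kept probe sets of the members and the kept genes of 4 pathway lists, with a line joining the 2 genotypes and dashed lines at 2-fold. Elovl6 is past 2-fold in both genotypes, and Acly, Fasn, Me1 and Pklr are past it in HSL-null liver and within it in wild-type liver.

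The other elongases and enzymes of the elongation cycle were within 2-fold. Of 11, 5 were measured and 4 kept, and 0 were 2-fold different in any of the 4 comparisons. Over all 4829 genes the share was 1.45% for diet in HSL-null and 3.15% in wild-type liver, and 2.82% for genotype on FD and 1.57% on ND. Elovl5 and Elovl2, which elongate polyunsaturated fatty acids, had log2 ratios of FD over ND of -0.32 and -0.32 in HSL-null and 0.02 and -0.14 in wild-type liver. Hsd17b12, the ketoacyl-CoA reductase of the cycle, had 0.17 and 0.63. Elovl3, an elongase of very long chains known from brown fat and liver, had signals of 4.6 in HSL-null FD and 1.2 in HSL-null ND, against 8.8 in wild-type FD and 2.0 in wild-type ND, under the filter.

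Desaturases and the electron carriers that serve them were measured for 4 of 8. At 2-fold there were 0 in any comparison, beside 1.45% to 3.15% of all genes over the 4 comparisons. Cyb5r3, cytochrome b5 reductase, had log2 diet ratios of -0.51 in HSL-null and 0.24 in wild-type liver. Fads1, the delta-5 desaturase of polyunsaturated fatty acids, had -0.37 and -0.04, and Cyb5a, cytochrome b5, -0.09 and -0.36.

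Of the 15 regulators of lipogenic transcription, 10 were measured and 9 kept, and 0 were 2-fold different in any comparison. Srebf1, the gene of SREBP-1, had signals of 878.3 on FD and 601.7 on ND in HSL-null liver and of 737.3 and 690.6 in wild-type liver. Its log2 diet ratio was 0.55 in HSL-null liver and 0.09, within the SD between probe sets, in wild-type liver. Pparg, a lipogenic nuclear receptor, had log2 diet ratios of 0.81 in HSL-null and 0.66 in wild-type liver from signals of 22.6 to 43.0. Usf1, an E box factor, was lower in HSL-null liver, at -0.65 on FD and -0.60 on ND.

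Among 7 measured genes of 13 for acyl-CoA use and lipid assembly, 1 was 2-fold lower on FD in HSL-null liver, beside 0.621% of all genes. This was Lpin1, the phosphatidate phosphatase lipin 1, at -1.04, with -0.59 in wild-type liver. Gpam, the mitochondrial glycerol phosphate acyltransferase, had -0.80 and 0.18, and Lpin2 -0.59 and -0.33. Of 11 genes that handle very long chain fatty acids, the substrates and products near Elovl1, 7 were measured, 6 were kept and 0 were 2-fold different. Cers2, a ceramide synthase for very long chains, had diet ratios of 0.04 in HSL-null and 0.52 in wild-type liver. Slc27a5, a bile acid and fatty acid CoA ligase, had -0.39 and -0.01, and Abcd2, a peroxisomal transporter, was 0.39 higher in HSL-null liver on ND.

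Likeness of pattern was the root mean square distance over the 4 arrays between log2 signals centred on each gene's mean, at the brightest probe set, over 4828 other genes. Nearest to Elovl6 was Fabp5, at 0.28, with signals of 66.9 on FD and 210.3 on ND in HSL-null liver and of 60.2 and 196.4 in wild-type liver. Pold2 at 0.44 and Ulk1 at 0.53 came next, and no gene lay within 0.1 of Elovl6 at 103665_at. The other Elovl6 probe set, 94418_at, which had a different wild-type diet ratio, was not compared. Nearest to Elovl1 were Erbb3 (0.09), Avpr1a (0.10) and Arhgef25 (0.10), and nearest to Scd1 were Klk1b1 (0.06), Rce1 (0.08) and Mc5r (0.09). These genes near Scd1 were dim, with signals of 20.2 to 61.6 against 2775.0 to 5918.0 for Scd1 at 94057_g_at. The SD of a log2 ratio was 0.386 for genes at 27.0 to 45.1, larger than these distances. Nearest to Scd2 were Tspan33 (0.03), Sdhaf1 (0.03) and Eid1 (0.04), and 40 genes lay within 0.1 of Scd2 at 162077_f_at.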

How the data were processed

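The deposited table gave MAS5 intensity values, 1 for each probe set on each array, per the submitters' processing notes. Its version was not stated in any source used here. The remaining files that the authors deposited held other values, such as run settings, and no expression. Per the labels' protocols, biotin-labelled cRNA was made from column-purified total RNA. Of 12488 probe sets 66 were controls, and 10833 of the rest had 1 gene in the platform annotation, 396 several and 1193 none.

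The floor was the 25th percentile of all non-control values and the filter the median (50th percentile) of the probe set means. A gene was represented by its brightest kept probe set. The number of arrays limits the precision, and no test or p-value is given. List genes are named where 2-fold different or among the 3 with the largest ratios. Cyclic loess used limma 3.58.1 in R 4.3.3, and the rest Python 3.11.15, after the steps were tested on simulated data. Alternatives were 3 normalizations, 2 treatments of low signals, 2 filters and 2 ways to represent a gene. Members and lists were chosen with earlier results of these data known. Detection calls were not used here.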

Additional observations from a re-analysis of the deposited data

Results flagged for a closer look

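At both probe sets of Scd2 the genotype ratio had opposite signs on FD and ND, a difference of 1.06 at 162077_f_at and 0.69 at 95758_at on the log2 scale. At both probe sets of Elovl6 it had opposite signs too, but in opposite senses, with a difference of 0.82 at 103665_at and -0.42 at 94418_at. These differences were not tested, since each group has 1 array. The 4 ND ratios lay within 1 SD between probe sets of 0. The ND ratio of 162077_f_at, -0.07, turned to 0.035 under quantile normalization, 0.063 under median scaling and 0.032 under cyclic loess, so the opposite signs at this probe set were lost under all 3.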

How the results depend on the processing

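Both Elovl6 probe sets stayed 2-fold or more lower on FD in both genotypes, and no other member reached 2-fold for diet or genotype, under the 5 other normalizations and treatments of low signals. Of the gene ratios under the alternatives, 132 stayed within the SD between probe sets and 8 moved by more. Some of the 132 could not move. Elovl1 has 1 probe set, and the brightest probe set of Elovl6 carries no suffix. The floor at the median also left the ratios of Elovl6, Elovl1 and Scd1 as they were. For FD over ND in wild type, Scd1 had -0.30 under quantile normalization, Scd2 -0.44 at its probe set with no suffix and Elovl6 -1.97 as the mean of its probe sets. For HSL-null over wild type on FD, Scd1 had -0.038 and Scd2 0.49 at the probe sets with no suffix, Scd2 had 0.68 with log2(signal + 16), and Elovl6 0.17 as the mean, with 0.20 for the difference of genotype ratios. The probe set without a suffix, the mean and the added constant change the value by construction; for quantile normalization the cause was not tested.

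Shares of kept probe sets past 2-fold were 1.58% for diet in HSL-null and 3.33% in wild type, and 2.91% on FD and 1.69% on ND for genotype. With log2(signal + 16) they were 0.789%, 1.55%, 1.43% and 0.692%, with the floor at the median 0.950% and 1.03% for diet in HSL-null and genotype on ND, without a filter 3.50%, 5.90%, 5.12% and 3.85%, and with the filter at the 75th percentile 2.0%, 1.87% and 0.580% for all but diet in HSL-null. For the difference of genotype ratios 6.65% became 3.33%, 10.8% and 3.51% under log2(signal + 16), no filter and the stricter filter. No paired analysis was possible because each group has 1 array. Low signal limits Scd2, and 1 array per group limits all ratios.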
